A study of Mus musculus with 18 samples.

Results

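Chromatin remodelers and histone modifiers are described here through the open chromatin around 49 of their genes in mouse naive CD4 T cells, the mature helper T cells that have not yet met antigen. Open chromatin was mapped by ATAC-seq, in which the transposase Tn5 cuts and tags accessible DNA, and the peaks of 18 libraries were merged into 33115 regions wherever they shared at least 1 bp. A region was counted for a gene when the nearest end of any protein-coding gene, within 100 kb of the centre of the region, was an end of that gene. This rule took 219 of the 33115 regions and gave at least 1 region to 48 of the 49 genes. A gene end is either limit of the annotated gene, so it can be its start or its far end.

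The cells came from untreated C57BL6/J mice, whose genotype the labels give as WT, and were sorted by a GFP reporter of Nr4a1 (Nr4a1-dsGFP). Nr4a1 is switched on by signals of the T cell receptor (TCR), so the low and high fractions stand for low and high tonic TCR stimulation, the signalling that T cells receive at rest. Both fractions were taken from the spleen, the mesenteric lymph nodes of the gut and the axillary lymph nodes of the armpit, with 3 replicates each, which gave 6 groups of 3 libraries and 9 libraries per reporter level. The labels call the replicates biological, but give no ages, no number of animals, no account of pooling and no description of the reporter allele. P-values therefore measure only the spread between these libraries, which may be technical. The design sets tonic stimulation and the tissue of origin against chromatin state.

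The peak lists held 14372 to 23129 peaks, and a relative depth recovered from the peak values ran from 8.48 to 16.6 reads per 10 kb of genome, with the 3 mesenteric high libraries deepest at 16.5 to 16.6. Within groups, the recovered reads of 2 libraries agreed within counting noise (chi-square per region 0.512 to 0.636 over 18 pairs, against 0.621 to 0.94 over 135 pairs of different groups), so this measure, which lay below 1 for each pair, cannot tell separate samples from repeats. The libraries were treated as the replicates that the labels name. The narrowest peak of a library, which follows the fragment length that the peak caller assumed, was 161 to 176 bp in 12 libraries and 216 to 236 bp in 6. Those 6 were 5 of the 6 axillary libraries and replicate 3 of spleen low. The axillary organ and this property therefore cannot be told apart in most libraries, and values from a fit that holds it as a term stand beside each call between organs on reads. Each of 10 marker genes of naive CD4 T cells had a region, and Ccr7, Cd28 and Cd3d had one at a gene end in all 18 libraries, while Il7r, Lef1 and Tcf7 had none at a gene end. Of 7 B cell markers, 3 had a region and 5, among them Cd79a, Cd79b, Ms4a1 and Pax5, had none at a gene end, while none of the 7 had one there in all 18 libraries. Per library, naive CD4 T markers had 20 to 33 regions in the low libraries and 27 to 47 in the high ones, B cell markers 0 to 2 and 1 to 3, CD8 T cell markers 2 to 4 and 1 to 7, and regulatory T cell markers 2 to 5 and 4 to 8. In the same order, NK cell markers had 3 to 4 and 2 to 4, myeloid markers 0 to 1 and 0 to 3, dendritic cell markers 1 to 3 and 1 to 4, erythroid markers 1 to 3 and 1 to 3, and stromal markers 2 to 5 and 2 to 9. None of the NK cell, myeloid, dendritic, erythroid or stromal markers had a gene-end region in all 18 libraries, and 2 of 4 NK cell markers and 1 each of the dendritic, erythroid and stromal markers had a farther region in all 18. Cd8b1 and Ikzf2 had a gene-end region in all 18 libraries and Cd8a and Foxp3 had none at a gene end. The part of these other cell types in the results below was not tested. In a mixture of cells, fewer cells with an open site and a site less often open in each cell cannot be told apart.

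DNA is wound around histones into nucleosomes, and the proteins of these genes decide how tightly. Remodelers of the SWI/SNF and CHD families use ATP to slide, evict or space nucleosomes. Writers such as the MLL methyltransferases, the Polycomb complex PRC2 and the acetyltransferases Crebbp and Ep300 place marks on histone tails, erasers such as the KDM demethylases and the HDAC deacetylases remove them, and the Dnmt and Tet enzymes place and oxidise methyl groups on DNA. In T cells these enzymes are known for keeping the naive state and for allowing or closing the helper cell programs after activation.

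Gene starts came first. RefSeq promoter sequences (build GRCm38.p6, the same build as the mm10 coordinates) matched 36 of the 49 genes, with 53 transcript starts between them. The start base lay under a region present in all 18 libraries for 22 of the 53 starts (41.5%, against 21.3% of 32619 promoters of 26794 genes), under a region present in 1 to 17 libraries for 17 (32.1%, against 10.9%), and under no region for 14 (26.4%, against 67.8%). This background of all promoters was not limited to the 21631 protein-coding genes, while the 49 genes are all protein-coding. The first 3 promoters below, of Kdm4a, Hdac2 and Smarca4, belong to gene-end regions that lead the comparisons of reads further on, and stand for starts open in every library. The last 3 were chosen after their values were seen, as starts open in few or some libraries: Kmt2a, an H3K4 methyltransferase, in 11, Arid1a, the DNA-binding subunit of the BAF form of SWI/SNF, in 3, and Chd4, the ATPase of the NuRD complex, in 5. Each is the 250 bases before the start, 5′ to 3′ on the strand of the gene. Capitals mark matches to GGGCGG (the SP and KLF motif), CCAAT (NFY) or TGAGTCA (AP-1) on either strand, so that CCGCCC and ATTGG are matches on the other strand.
Kdm4a: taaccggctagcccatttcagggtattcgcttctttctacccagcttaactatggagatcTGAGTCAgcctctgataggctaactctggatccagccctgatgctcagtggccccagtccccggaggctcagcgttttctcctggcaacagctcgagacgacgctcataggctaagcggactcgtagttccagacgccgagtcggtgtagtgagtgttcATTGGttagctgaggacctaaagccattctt
Hdac2: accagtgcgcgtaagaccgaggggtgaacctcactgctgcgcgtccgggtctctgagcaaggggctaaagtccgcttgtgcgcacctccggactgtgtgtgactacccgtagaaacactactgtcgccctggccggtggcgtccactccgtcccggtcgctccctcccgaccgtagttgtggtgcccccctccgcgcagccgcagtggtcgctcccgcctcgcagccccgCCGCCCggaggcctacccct
Smarca4: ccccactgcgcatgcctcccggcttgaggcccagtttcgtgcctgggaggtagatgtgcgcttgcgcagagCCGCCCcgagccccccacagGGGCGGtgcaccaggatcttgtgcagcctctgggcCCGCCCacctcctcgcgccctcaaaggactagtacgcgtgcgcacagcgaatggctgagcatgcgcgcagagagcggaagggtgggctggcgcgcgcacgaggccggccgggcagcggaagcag
Kmt2a: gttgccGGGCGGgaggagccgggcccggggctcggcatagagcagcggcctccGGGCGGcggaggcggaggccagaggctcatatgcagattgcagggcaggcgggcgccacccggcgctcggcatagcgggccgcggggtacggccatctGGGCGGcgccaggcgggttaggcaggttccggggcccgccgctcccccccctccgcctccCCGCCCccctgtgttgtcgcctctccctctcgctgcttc
Arid1a: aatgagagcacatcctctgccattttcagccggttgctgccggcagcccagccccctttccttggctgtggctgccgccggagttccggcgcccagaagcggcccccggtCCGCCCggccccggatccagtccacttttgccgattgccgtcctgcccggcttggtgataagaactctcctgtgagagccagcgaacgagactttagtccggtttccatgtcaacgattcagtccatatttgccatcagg
Chd4: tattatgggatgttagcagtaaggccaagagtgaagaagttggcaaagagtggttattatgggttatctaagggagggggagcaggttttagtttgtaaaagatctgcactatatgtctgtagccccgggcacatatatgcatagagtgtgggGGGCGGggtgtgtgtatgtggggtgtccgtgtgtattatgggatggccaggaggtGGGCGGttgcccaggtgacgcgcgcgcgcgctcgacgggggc

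These stretches lie at chr4:118180044-118180293 on the minus strand for Kdm4a, chr10:36974294-36974543 on the plus strand for Hdac2, chr9:21615919-21616168 on the plus strand for Smarca4, chr9:44881290-44881539 on the minus strand for Kmt2a, chr4:133756770-133757019 on the minus strand for Arid1a and chr6:125095731-125095980 on the plus strand for Chd4. The strongest of them, Kdm4a, had the lowest GC content of the 6 at 53.6%, with 12 CpG pairs, no SP and KLF match, an NFY match on the other strand 26 bases before the start and an AP-1 match 183 bases before it. Hdac2 had 68.8% GC and 1 SP and KLF match, and Smarca4 had 70.8% GC and 3. Kmt2a, whose start was open in fewer libraries, had 76.8% GC and 4 such matches, so base composition did not order these 6 by openness. Arid1a had 61.2% GC and 1 match, and Chd4 had 54% GC and 2.

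Over all 53 promoters the median GC content was 68.0%, against 52.4% over all promoters of the table. It was 68.6% where the start was open in all 18 libraries, 73.2% where it was open in 1 to 17 and 59.8% where it was under no region (62.4%, 60.0% and 48.8% over all promoters). Searched on both strands in the 250 bases, GGGCGG was found in 37 promoters (69.8%, against 33.0% of all promoters), CCAAT in 12 (22.6%, against 34.0%), the ETS motif CCGGAAG in 4 (7.55%, against 6.96%) and TGAGTCA in 2 (3.77%, against 4.48%). At starts open in all 18 libraries, GGGCGG was found in 72.7% of these promoters, against 68.3% of all promoters with such a start. At starts open in 1 to 17 libraries it was found in 82.4%, against 57.0%. At starts under no region it was found in 7 of 14, against 3979 of 22113. The excess over all promoters was thus small at starts open in all 18 libraries and larger at the other starts. The motif counts are matches of letters, which describe the sequence only.

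**Figure D1:**
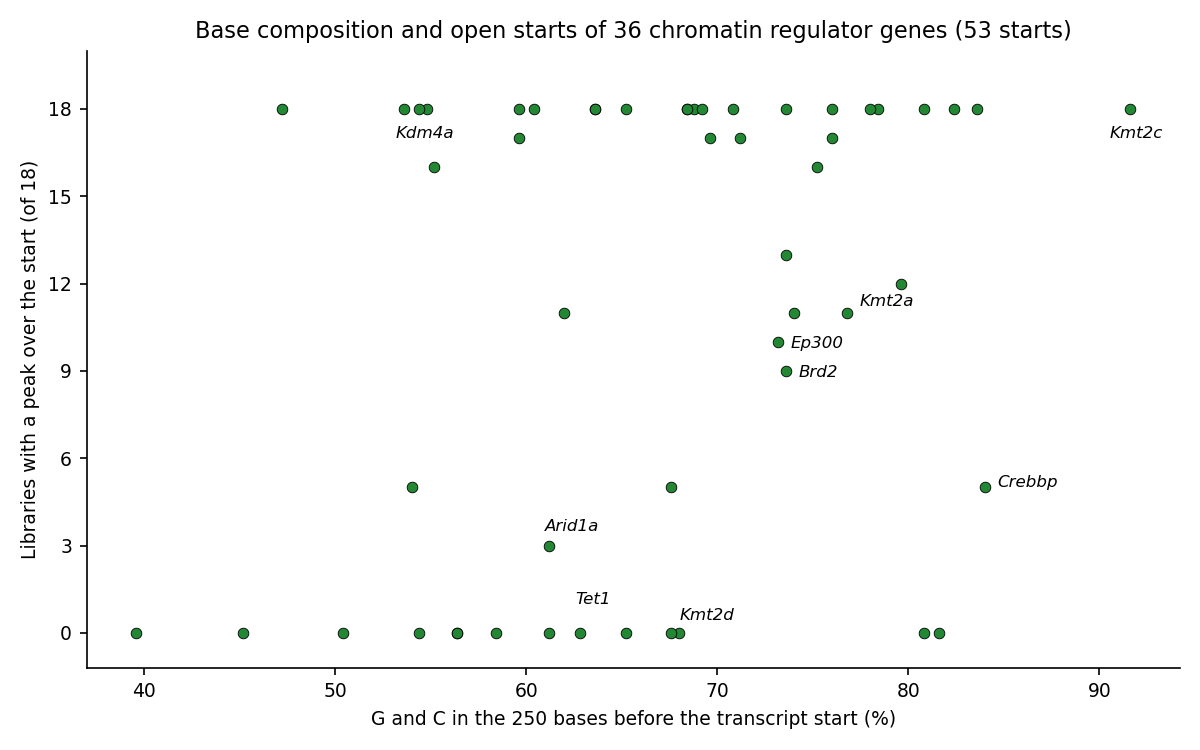
Number of libraries, of 18, with a peak over each of 53 transcript starts (y axis) against the GC content of the 250 bases before the start (x axis, percent). Each point is 1 start of 36 genes; 22 starts form the top row at 18 libraries and 14 the bottom row at 0, and both rows spread over a wide range of GC content.

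Where a gene had several listed starts, they often differed. Dnmt1, the maintenance DNA methyltransferase, had a start open in all 18 libraries and another, 6.91 kb away, under no region. The same held for Kdm4c, an H3K9 demethylase (9.38 kb apart), Kdm2b, an H3K36 demethylase that also recruits a Polycomb complex to CpG islands (88.7 kb), and Mllt3, a reader of acetylated histones in elongation complexes (227 kb). Jmjd1c had one start open in 18 libraries and another, 58.7 kb away, in 12. Hdac7 had starts open in 11 and 0 libraries, 16.9 kb apart, and Brd2, a bromodomain reader, in 9 and 0, 2.71 kb apart. For Dnmt3a, a de novo DNA methyltransferase, a start open in all 18 libraries and a start under no region lay 0.18 kb apart, either side of the edge of a region.

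Of the 219 regions, 40 lay within 1 kb of a gene end (18.3%, against 33.0% of the 30637 regions assigned to any gene) and 179 lay farther away, and 149 lay inside their own gene. A peak was present in all 18 libraries in 50 of the 219 regions (22.8%, against 27.6% of all assigned regions). Split by distance, this was 22 of the 40 near a gene end (55.0%, against 55.6%) and 28 of the 179 farther away (15.6%, against 13.9%), so within each distance class the genes lay close to the background. The genes had a median of 3 regions each, against 2 over 12861 genes, and were longer, with a median of 75.2 kb against 24.5 kb. Spearman's rho between the number of regions and gene length was 0.456 over 48 genes and 0.344 over 12861 genes, a description across genes that are not independent replicates. A peak in 1 library was found in 53 regions (24.2%, against 18.4%), and 34 of these 53 were in a mesenteric high library (64.2%, against 50%), the deepest group.

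**Figure D2:**
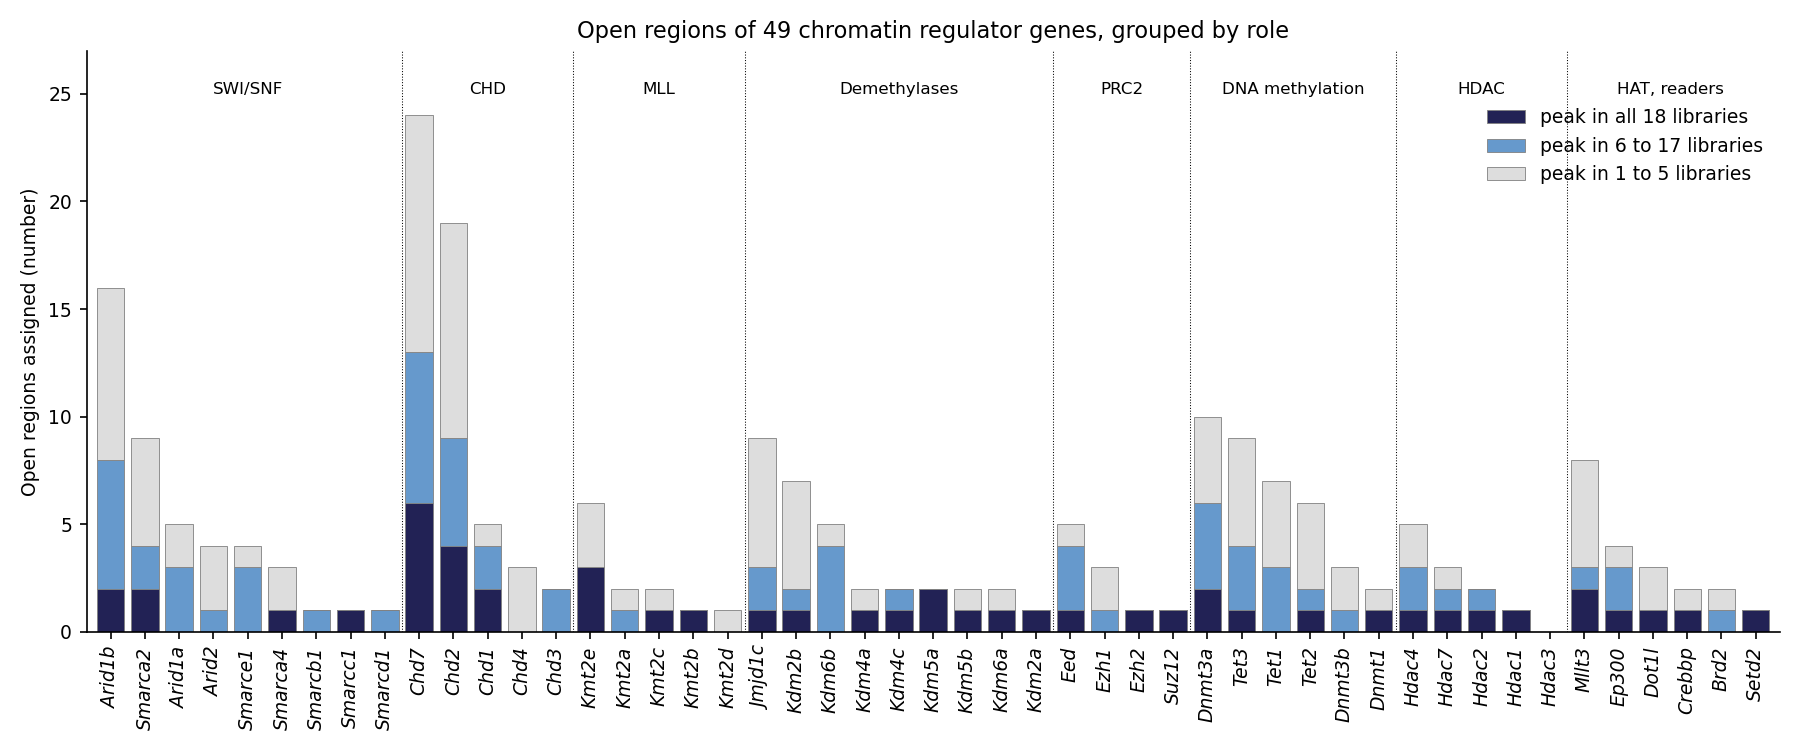
Number of open regions counted (y axis) for each of the 49 genes (x axis), grouped by role; the bar segments give regions present in all 18 libraries, in 6 to 17 and in 1 to 5. Chd7 (24), Chd2 (19) and Arid1b (16) have the longest bars and Hdac3 has none.

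SWI/SNF remodelers had 44 regions over 9 genes, 6 of them in all 18 libraries. The ATPases Smarca4 (BRG1) and Smarca2 (BRM) and the core subunit Smarcc1 had their start open in all 18, with mean authors' fold enrichments of 9.40 ± 1.92, 10.9 ± 1.05 and 9.19 ± 1.23 (SD over 18 libraries). Smarcb1 and Smarcd1 were open at the start in 17 libraries and Smarce1 at a gene end in 15. Arid1b, the alternative to Arid1a in BAF, had 16 regions along its 353 kb, with 1 at the start in 17 libraries and 2 inside the gene in all 18, at chr17:5007010-5007552 (13 kb from the gene end) and chr17:5295602-5296092 (51.8 kb). Arid1a was the exception among the starts, with 3 libraries at chr4:133756756-133757078, 16 at a region inside the gene 28.1 kb from its end and none in all 18. Arid2, the targeting subunit of the PBAF form, had 4 regions inside the gene, the most widely shared in 17 libraries. A region outside the gene, with its centre 602 bp from the gene end and open in all 18, lay nearer to Gm38469.

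The CHD remodelers had the most regions of the 8 roles, 53 over 5 genes with 12 in all 18 libraries. Chd7, a remodeler of enhancers, had 24 regions, with the gene end open in 18 libraries (mean fold 8.10 ± 1.36) and 4 further regions inside the gene open in all 18. Chd2, a remodeler linked to active transcription, had 19, with a region at the gene end in 5 libraries and 4 regions in all 18, at 3.81 kb inside the gene (mean fold 13.4 ± 1.72) and at 16.8, 53.7 and 76.8 kb outside it. Chd1, which reads H3K4 methylation, was open at the gene end and 1.20 kb inside it in all 18. Chd3 and Chd4, the NuRD ATPases, had no region in all 18 libraries, and Chd4 was open at its start in 5.

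Among the MLL methyltransferases, which methylate H3K4 at promoters and enhancers, Kmt2b, Kmt2c and Kmt2e had a gene-end region in all 18 libraries. Kmt2e, named for the family but without clear methyltransferase activity, had the strongest region of all 219 by mean fold, at chr5:23386606-23387413, 46.0 kb outside the gene, with 15.1 ± 1.44 and a median within-library fold percentile of 96.3. It was picked out after its values were seen. Kmt2a was open at its start in 11 libraries and Kmt2d had 1 region, inside the gene, in 2 libraries; the region over the end of Kmt2d, open in all 18, lay nearer to Prkag1.

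The demethylases had 32 regions over 9 genes. Kdm4a, which removes methyl groups from H3K9 and H3K36, had the strongest gene-end region, at chr4:118179500-118180338 (mean fold 14.5 ± 1.13, percentile 95.1). Kdm5a, an H3K4 demethylase, had a stronger region 6.70 kb from the gene end, inside the neighbouring Ccdc77 at chr6:120357120-120357675 (14.5 ± 2.78), than at the end itself (7.71 ± 1.26), both in all 18 libraries. Kdm4c, Kdm6a and Jmjd1c had no gene-end region but a transcript start open in all 18, with mean folds of 12 ± 1.02, 12.2 ± 1.25 and 9.10 ± 1.20. The region over the annotated start of the Jmjd1c gene, open in all 18, lay nearer to Reep3. Kdm6a removes methyl groups from H3K27, as does Kdm6b, which had 5 regions inside the gene with the most widely shared in 16 libraries.

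PRC2 methylates H3K27 to silence genes. Its catalytic subunit Ezh2 and the core subunits Suz12 and Eed were open at the start in all 18 libraries, with mean folds of 11.5 ± 1.24, 11.3 ± 1.30 and 8.21 ± 0.618, and the alternative subunit Ezh1 in 16. In the DNA methylation group, Tet2 and Tet3, which oxidise methylcytosine, had a gene-end region in all 18 libraries (10.4 ± 1.21 and 6.46 ± 0.962) and Dnmt1 and Dnmt3a had an open start inside the annotated gene (11.7 ± 2.09 and 6.36 ± 0.781). Tet1 had 2 gene-end regions of 1 library each, and Dnmt3b was open at the start in 16 libraries.

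Among the deacetylases, the class I genes Hdac1 and Hdac2 had a gene-end region in all 18 libraries (10.7 ± 1.96 and 10.1 ± 0.741). Hdac3, also of class I, had 0 regions by the rule, as the region at its end lay 30 bp from it and 9 bp from Rell2, and was open in 17 libraries. The class IIa genes Hdac4 and Hdac7 had none at a gene end; Hdac4 had a start open in all 18 (12.1 ± 1.05) and Hdac7 a region inside the gene in all 18 (10.4 ± 1.52). Of the acetyltransferases, readers and elongation genes, Crebbp, Ep300, Mllt3, the H3K79 methyltransferase Dot1l and the H3K36 methyltransferase Setd2 had a gene-end region in all 18. For Crebbp and Ep300 it lay upstream of the listed transcript start, while the region over that start was open in 5 and 10 libraries. The upstream region of Crebbp spanned the annotated limit of the gene. Brd2 was open at its start in 9. In all, 34 of the 49 genes had a region present in all 18 libraries, and the 15 without one were Arid1a, Arid2, Smarcb1, Smarcd1, Smarce1, Chd3, Chd4, Kmt2a, Kmt2d, Kdm6b, Ezh1, Dnmt3b, Tet1, Hdac3 and Brd2.

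Libraries differed in how many of the 219 regions they held. The mesenteric high libraries had 138 to 150 (145 ± 6.24, SD, n = 3), above each of the other 15 libraries. Axillary high libraries had 92.0 ± 5.00, axillary low 94.7 ± 5.51, mesenteric low 104 ± 1.53, spleen high 106 ± 2.65 and spleen low 103 ± 6.81 (SD, n = 3 each). Depth moved with this count, as the mesenteric high libraries were the deepest. With reads thinned to the shallowest library, mesenteric high had 116 ± 6.08 and the others 86 to 101. With each list cut to its 14372 strongest peaks, the 18 libraries lay between 84 and 100. As a share of all assigned regions of a library, the 219 regions made up 0.626 to 0.738%.

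**Figure D3:**
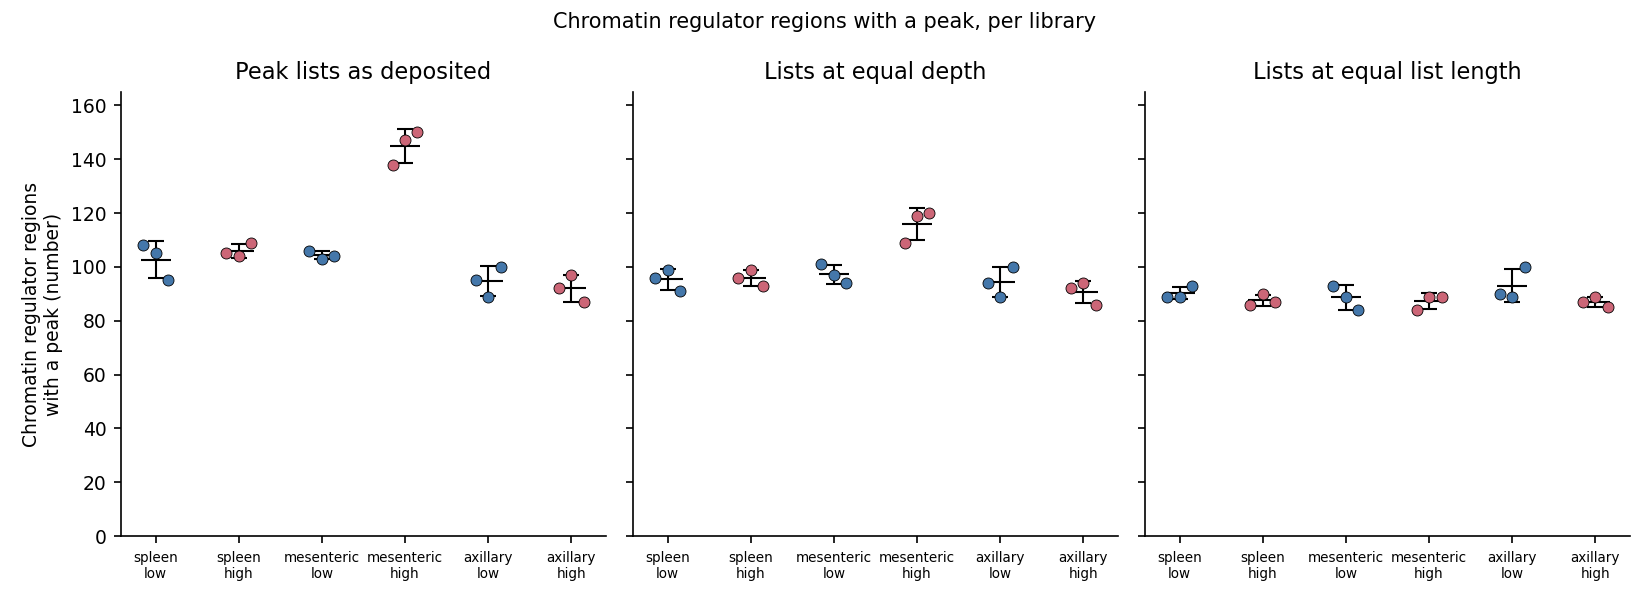
Number of the 219 regions with a peak in each library (y axis), by group (x axis), as deposited, with reads thinned to equal depth and with lists of equal length; points are libraries and bars the mean ± SD of 3. The mesenteric high libraries stand above the others as deposited (138 to 150) and lie within 84 to 100 with the rest at equal list length.

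Presence of a peak was compared between reporter levels with Fisher's exact test (two-sided, 9 libraries against 9) for the 28 regions of these genes present in 6 to 12 libraries. None passed an adjusted p of 0.05 (Benjamini-Hochberg over 5737 regions of the genome, of which 0.0% passed; smallest adjusted p 0.118). At an unadjusted p under 0.05, 3 of the 28 had peaks in more high libraries (background 5.84% of regions tested) and 1 in more low libraries (background 0.261%). The high libraries are the deeper ones in the mesenteric nodes.

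The smallest p in the direction of high was in Mllt3, at chr4:87984500-87985007 inside the gene, 48.7 kb from its end. This region had a peak in 3 of 3 high libraries of each organ and, among low libraries, in 0 of 3 of the spleen and 1 of 3 of either node, so 9 against 2 (p = 0.00226, adjusted p = 0.382 by Fisher's exact test). It was 8 against 2 at equal depth and 9 against 2 at equal list length. A Chd7 region inside the gene, at chr4:8853823-8854392, had peaks in 8 high and 2 low libraries (exact p = 0.0152, adjusted p = 0.493), with 8 against 2 at equal depth and 7 against 1 at equal list length. A region 26.5 kb outside Eed, at chr7:90007209-90007659, had peaks in 8 high and 3 low libraries (exact p = 0.0498, adjusted p = 0.749). These counts leaned to the high libraries, and none passed the threshold over all regions. A Dnmt3a region at chr12:3823418-3823858 (8 against 4, exact p = 0.131) went to 4 against 4 at equal depth. Another Chd7 region, at chr4:8842829-8843113, had 7 against 3 (exact p = 0.153), 7 against 3 at equal depth and 4 against 2 at equal list length.

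In the other direction, a region 27.1 kb from Jmjd1c, at chr10:67069065-67069445 inside the neighbouring Reep3, had peaks in 0 high and 6 low libraries (exact p = 0.00905, adjusted p = 0.455). The 6 were 2 of the spleen, 3 of the mesenteric nodes and 1 of the axillary nodes. It was 0 against 6 at equal depth and 0 against 4 at equal list length. With lists of equal length, 2 of 29 regions tested had an unadjusted p under 0.05 toward high and 0 toward low, while over all 4363 regions the counts were 83 and 83.

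Between organs, 43 regions present in 5 to 13 libraries were tested with the exact Fisher-Freeman-Halton test on 6 libraries per organ. None passed (0.0% of 7630 regions tested; smallest adjusted p 0.0881), and 4 had an unadjusted p under 0.05 (background 11.2%). The start of Kmt2a, at chr9:44881159-44881768, had a peak in 6 spleen, 4 mesenteric and 1 axillary libraries (exact p = 0.0181, adjusted p = 0.281). It was 5, 2 and 1 at equal depth and 6, 1 and 0 at equal list length, so the spleen led in each. A region inside Arid1b, at chr17:5303262-5303728, had the same 6, 4 and 1, and 3, 2 and 1 at equal list length. The start of Brd2, at chr17:34122351-34122824, was open in 1 spleen, 6 mesenteric and 2 axillary libraries (exact p = 0.0247, adjusted p = 0.285), which became 0, 1 and 2 at equal list length. It was 1, 5 and 2 at equal depth. Its mesenteric lead was thus present as deposited and at equal depth, and absent at equal list length. A region inside Arid1a, at chr4:133729622-133730120, had 2, 6 and 2 (exact p = 0.0364, adjusted p = 0.345), and 2, 4 and 2 at equal list length. A further 5 regions had a p below 0.2: a Chd2 region at the gene end (1, 4 and 0), another Arid1b region (2, 6 and 5), and regions of Chd7 (5, 4 and 1), Chd1 (5, 3 and 1) and Smarce1 (2, 5 and 1). At equal list length these were 1, 0 and 0 for Chd2, 1, 4 and 3 for Arid1b, 3, 2 and 1 for Chd7, 4, 1 and 1 for Chd1, and 2, 1 and 0 for Smarce1, so the mesenteric lead of Chd2 and Smarce1 passed to the spleen. At equal depth Chd2 had 1, 2 and 0 and Smarce1 had 2, 4 and 1, so both kept the mesenteric lead. The part of the narrowest peak in these counts was not tested.

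How much a region was open was compared over the 50 regions of these genes present in all 18 libraries. The quantity is the reads at the highest point of the peak, recovered as whole numbers from the authors' fold and p, scaled between libraries by the median ratio over 8756 such regions, and tested as log2 values with limma over all 8756. Between high and low, none of the 50 regions passed an adjusted p of 0.05 (1.51% of all regions passed). At an unadjusted p under 0.05, 4 of the 50 differed, against 13.7% of all regions. The median log2 difference of the 50 was -0.014, against 0.000 over all.

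The largest difference toward high was in Hdac7, a deacetylase that T cells regulate through its export from the nucleus, at chr15:97825024-97825519 inside the gene, 19.2 kb from its end. In the spleen its scaled reads were 21.6, 13.2 and 21.1 in low and 26.7, 20.2 and 25.3 in high libraries. In the mesenteric nodes they were 17.6, 24.5 and 17.7 in low and 28.3, 26.7 and 24 in high. In the axillary nodes they were 22.0, 20.3 and 16.1 in low and 24.1, 25.2 and 23.2 in high. High libraries lay above low ones without overlap in the axillary nodes, and with overlap in the other organs. Its log2 difference was 0.38 ± 0.114 (SE), a fold of 1.30, with an unadjusted limma p of 0.00116 and an adjusted p of 0.0629. Without replicate 1 of spleen low or without replicate 2 of mesenteric low it passed, with adjusted p of 0.0457 and 0.0402. It did not pass by the authors' fold (0.256, limma adjusted p = 0.284) or when scaled by the genome-wide background (0.361, adjusted p = 0.124). With the narrowest peak as a term it did not pass either (0.405, adjusted p = 0.0793).

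The other regions with the smallest p were in Chd7, toward high, at 84.7 kb (0.30 ± 0.124, limma adjusted p = 0.243) and at 57.2 kb (0.23 ± 0.112, adjusted p = 0.336). Toward low they were the starts of Kdm4a (-0.14 ± 0.0672, adjusted p = 0.358), Smarca4 (-0.24 ± 0.126, adjusted p = 0.4) and Smarcc1 (-0.23 ± 0.134, adjusted p = 0.462). None of these passed the threshold.

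**Figure D4:**
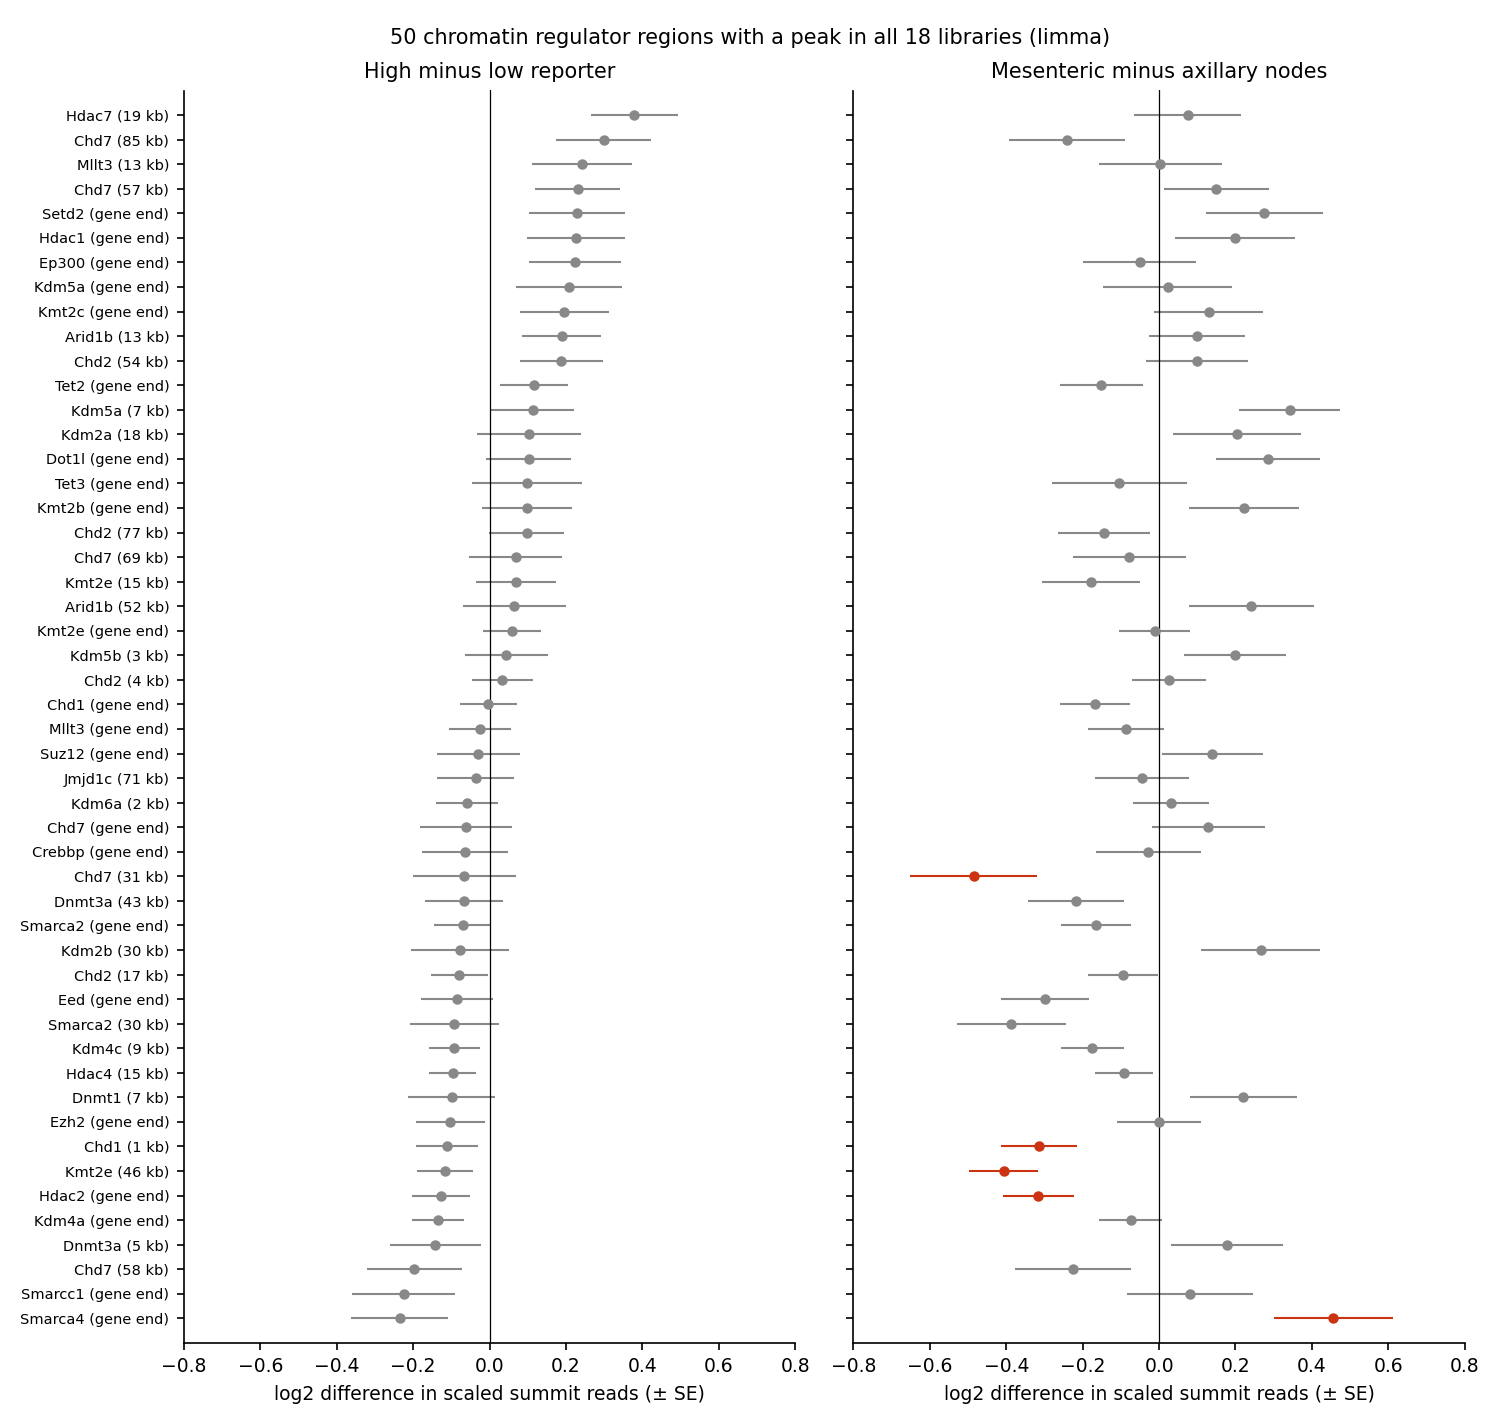
Log2 difference in scaled summit reads for the 50 regions present in all 18 libraries (one point per region, with its SE, labelled by gene and distance), for high minus low on the left and mesenteric minus axillary nodes on the right; red points passed an adjusted p of 0.05. No point is red on the left, and 5 are red on the right, 1 above and 4 below 0.

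Within organs, again none of the 50 regions passed. In the spleen 0.206% of all regions passed, and 4 of the 50 had an unadjusted p under 0.05 (background 8.67%). The Chd7 region at chr4:8811045-8811523, 57.2 kb from the gene end, had scaled reads of 14.7, 14.2 and 19 in spleen low and 22.6, 25.3 and 29.3 in spleen high libraries. The groups did not overlap, and the log2 difference was 0.70 ± 0.194, a fold of 1.62 (limma adjusted p = 0.13, and 0.0278 with the narrowest peak as a term). The limma adjusted p of this region was 0.198 when scaled by the genome-wide background and 0.0602 by the authors' fold. In the nodes its groups overlapped, with 22.6 to 28.4 in mesenteric low, 23.2 to 32.9 in mesenteric high, 18 to 28.8 in axillary low and 18 to 26.5 in axillary high. Chd1 at 1.20 kb had 47.0, 42.5 and 41.2 scaled reads in spleen low and 33.9, 38.5 and 25.3 in spleen high, with high below low and no overlap (-0.44 ± 0.141, adjusted p = 0.252). Dot1l at its start differed by 0.44 ± 0.192 (adjusted p = 0.459). Chd7 regions at 58.3 kb (-0.39 ± 0.216, limma adjusted p = 0.601) and 30.7 kb (-0.42 ± 0.234, adjusted p = 0.605) leaned toward low, unlike the one at 57.2 kb. At 58.3 kb scaled reads were 16.2 to 20.6 in spleen low and 12.1 to 15.4 in spleen high, without overlap. The remaining Chd7 regions present in all 18 libraries overlapped between spleen low and spleen high.

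In the mesenteric nodes 1.43% of all regions passed, and 4 of the 50 had an unadjusted p under 0.05 (background 12.7%). The start region of Kdm4c, at chr4:74251452-74252415, had 58.8, 64.7 and 53 scaled reads in low and 43.6, 48.9 and 45.0 in high. These did not overlap, with a log2 difference of -0.36 ± 0.116 (limma adjusted p = 0.0958), and it passed at 0.033 when regions near and far from gene ends were scaled separately. It did not pass with the narrowest peak as a term (limma adjusted p = 0.0613) or when scaled by the genome-wide background (0.0911). By the authors' fold the difference was -0.27 (limma adjusted p = 0.349). Arid1b at 13 kb differed by 0.42 ± 0.177 (adjusted p = 0.253) and the Crebbp gene end by -0.45 ± 0.195 (adjusted p = 0.277). In the axillary nodes 0.32% of all regions passed, and 1 of the 50 had an unadjusted p under 0.05 (background 9.67%). The leading differences there were Ep300 upstream of its start (0.41 ± 0.209, adjusted p = 0.525) and Kmt2e at 46.0 kb (-0.26, adjusted p = 0.495).

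Whether the difference between high and low itself differed between organs was tested as an interaction, which none of the 50 regions passed (0.251% of all regions passed; 5 of the 50 at an unadjusted p under 0.05, background 10.5%). The smallest limma p-values were those of Chd1 at 1.20 kb (0.00831, adjusted 0.289), Chd7 at 57.2 kb (0.0118, adjusted 0.304) and Kdm4c (0.0203, adjusted 0.378).

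Between organs, 9 comparisons in 8 regions passed. Mesenteric against axillary nodes gave 5 of the 50, 1 higher in the mesenteric and 4 higher in the axillary nodes (11.3% of all regions passed, 5.07% higher and 6.24% lower in the mesenteric nodes). Spleen against axillary nodes gave 3, 1 higher and 2 lower in the spleen (background 6.93%, with 3.32% of all regions higher and 3.61% lower). Spleen against mesenteric nodes gave 1, higher in the spleen (background 1.71%, 0.994% higher and 0.72% lower). These shares of the 50 were near the background. With the narrowest peak as a term in the fit, none of the 9 passed, and over all regions the calls fell from 990 to 80, from 607 to 170 and from 150 to 119. With the authors' fold in place of reads none of the 9 passed either. Scaling by the genome-wide background moved the median of all regions by -0.215 for spleen minus mesenteric and by 0.196 for mesenteric minus axillary nodes, and the calls of the 50 became 0 higher and 9 lower, and 8 higher and 0 lower. Under that scaling 6 of the 9 calls ended, those of Chd2, Kmt2b, Chd7, Kmt2e, Chd1 and, for mesenteric against axillary nodes, Hdac2 (limma adjusted p 0.0789 to 0.381).

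Kmt2e at chr5:23386606-23387413, the strongest region by fold, had the smallest p. Its scaled reads in the mesenteric nodes were 38.2, 42.1 and 36.3 in low and 42.0, 38.2 and 45.7 in high, and in the axillary nodes 52.8, 58.6 and 64.5 in low and 52.3, 46.8 and 47.5 in high. The 6 mesenteric libraries (40.4 ± 3.49, SD) lay below the 6 axillary ones (53.8 ± 6.78) without overlap, and the spleen libraries lay across both, from 36.4 to 53.8. The log2 difference, mesenteric minus axillary, was -0.41 ± 0.0901, a fold of 0.754 (limma adjusted p = 0.00108). It passed with each library left out in turn. It was -0.26 with an adjusted p of 0.385 with the narrowest peak as a term, -0.22 with 0.0913 when scaled by the genome-wide background and -0.19 with 0.135 by the authors' fold.

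Hdac2, a class I deacetylase that acts in several corepressor complexes, had more reads over its start in the axillary nodes than in either other organ, at chr10:36974008-36975280. Scaled reads ran from 33.4 to 45.4 in the spleen (median 40.0), from 32.1 to 43.1 in the mesenteric nodes (median 40.7) and from 42.0 to 54.1 in the axillary nodes (median 49.9). The ranges overlapped at their edges. The difference was -0.28 ± 0.0935 for spleen minus axillary (limma adjusted p = 0.0458) and -0.32 ± 0.0935 for mesenteric minus axillary (adjusted p = 0.0178). With the narrowest peak as a term these became -0.13 (adjusted p = 0.696) and -0.12 (adjusted p = 0.776), and the first call was lost without any of 10 single libraries (adjusted p 0.051 to 0.136) and the second without replicate 1 of mesenteric high or replicate 3 of axillary high (0.0654 to 0.0697).

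Smarca4, the BRG1 ATPase, had fewer reads at its start in the axillary than in the mesenteric nodes (chr9:21615759-21616598). Mesenteric libraries had 18.6, 26.5 and 19.6 in low and 19.1, 19.1 and 14.2 in high, and axillary libraries had 14.3, 16.9 and 17.3 in low and 12.6, 10.8 and 13.3 in high. They overlapped at a single mesenteric library, and the difference was 0.46 ± 0.155, a fold of 1.37 (limma adjusted p = 0.0402). With the narrowest peak as a term it was 0.52 with an adjusted p of 0.312, and the call was lost without any of 7 single libraries (0.0508 to 0.132).

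The regions of CHD remodelers with calls in this pair, in Chd1 and Chd7, were lower in the mesenteric nodes. Other Chd7 regions had no call and went either way. Mean scaled reads were 25.8 in mesenteric against 23.5 in axillary libraries at 57.2 kb, and 16.3 against 19 at 58.3 kb. Chd1 at chr17:15705872-15706457 had 32.3, 39.2, 38.2, 35.9, 34.4 and 33.0 scaled reads in the mesenteric and 39.6, 42.8, 41.5, 40.8, 48.0 and 53 in the axillary libraries, without overlap. Its difference was -0.32 ± 0.0994 (fold 0.804, limma adjusted p = 0.0262), and -0.38 with an adjusted p of 0.212 with the narrowest peak as a term. Without replicate 1 of mesenteric low, replicate 3 of mesenteric high, replicate 2 of axillary low or replicate 3 of axillary high the adjusted p was 0.0526 to 0.0902. Chd7 at chr4:8837457-8837960, inside the gene, had 10.8 to 14.5 in the mesenteric (median 11) and 11.5 to 20.9 in the axillary libraries (median 16.7). These overlapped, with a difference of -0.49 ± 0.165 (fold 0.714, adjusted p = 0.0409), -0.58 and an adjusted p of 0.278 with the term, and a call that was lost without any of 9 single libraries (0.0599 to 0.137).

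A further 3 calls involved the spleen. Dnmt3a at chr12:3870880-3871582, inside the gene 43.2 kb from its end, had 20.6, 25.3, 26.4, 19.5, 20.2 and 20.2 scaled reads in the spleen and 37.4, 33.8, 23.1, 30.3, 27.6 and 30.9 in the axillary libraries. All but 1 axillary library lay above the spleen range, with a difference of -0.46 ± 0.126 (fold 0.725, limma adjusted p = 0.0125), which was -0.34 with an adjusted p of 0.335 with the narrowest peak as a term and 0.0593 without replicate 1 of axillary low. Kmt2b, an H3K4 methyltransferase of promoters, had 20.6 to 29.4 (median 25.5) in the spleen and 14.4 to 27.5 (median 17) in the axillary libraries at its gene end, chr7:30588382-30589313. Its difference was 0.47 ± 0.144 (fold 1.38, adjusted p = 0.0314), 0.50 with an adjusted p of 0.19 with the term, and lost without any of 7 single libraries (0.0521 to 0.117). Chd2 at chr7:73618082-73618916, 76.8 kb outside the gene, had 27.4 to 44.5 (median 33.6) in the spleen and 21.6 to 29.0 (median 25) in the mesenteric libraries, overlapping slightly. Its difference was 0.44 ± 0.12 (fold 1.36, adjusted p = 0.0316), 0.39 with an adjusted p of 0.0693 with the term, and lost without any of 8 single libraries (0.0554 to 0.132).

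**Figure D5:**
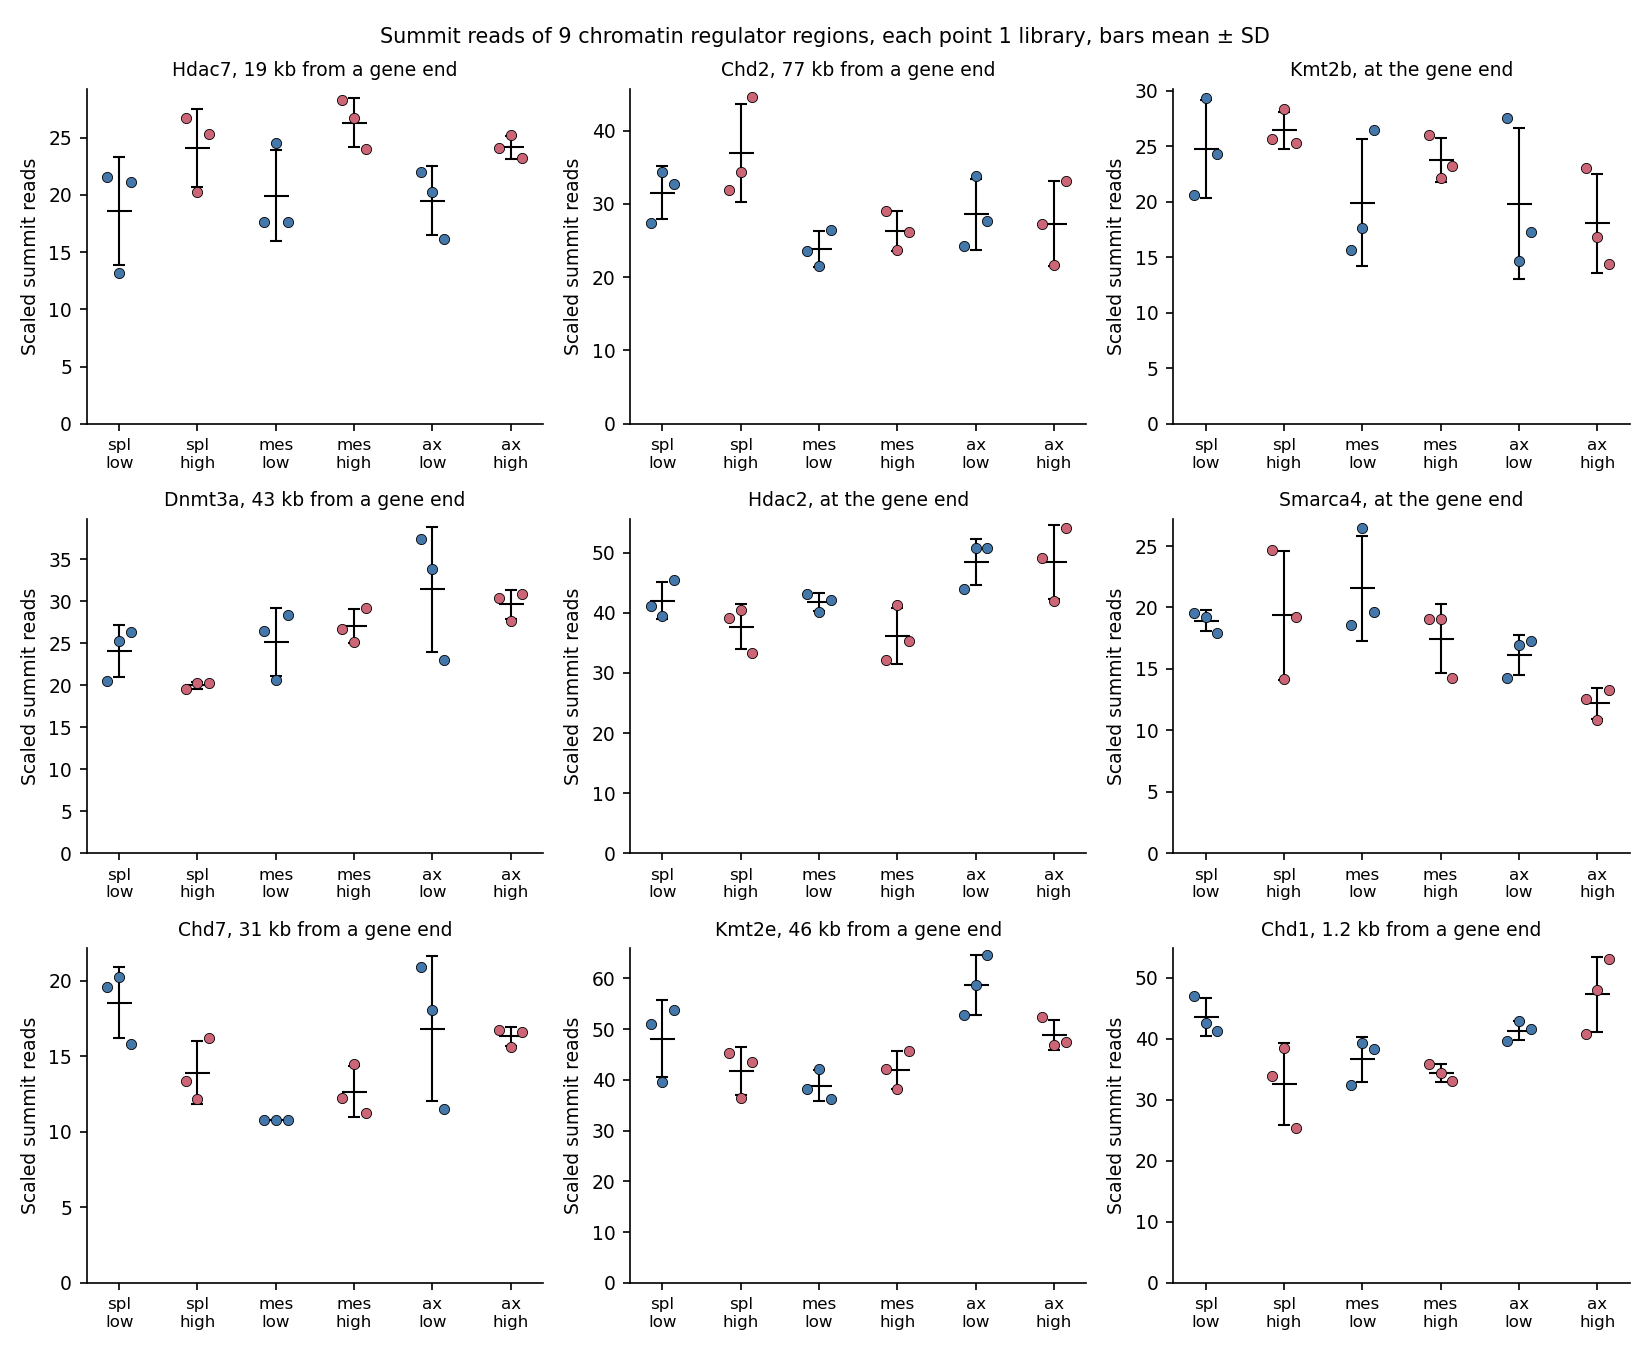
Scaled summit reads (y axis) in each of the 18 libraries for 9 regions named above, by group (x axis); points are libraries, blue for low and red for high, with the mean ± SD of 3. For Kmt2e the axillary libraries (46.8 to 64.5) lie above the mesenteric ones (36.3 to 45.7).

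Beside the 49 genes, 147 other genes of chromatin complexes and enzymes were counted the same way, and 135 of them had a region. They held 339 regions, 113 of them in all 18 libraries (33.3%, against 27.6% of all assigned regions). Between high and low over all organs, 2 of the 113 passed toward high and 0 toward low (background 1.51%): a gene end of Prmt5, an arginine methyltransferase (0.27 ± 0.0751, limma adjusted p = 0.0358), and a region 7.45 kb from Aebp2, an accessory subunit of PRC2 (0.46 ± 0.123, adjusted p = 0.03). With the narrowest peak as a term neither passed (limma adjusted p = 0.172 and 0.0813). Within organs, 1 passed toward low in the mesenteric nodes (background 1.43%), a gene end of Kdm1b, a histone demethylase (-0.57 ± 0.154, limma adjusted p = 0.0319), and 1 toward low in the axillary nodes (background 0.32%), a region 4.13 kb from an end of Sin3a, the scaffold of a deacetylase complex (-0.55 ± 0.128, limma adjusted p = 0.021). Both passed with the term too, among 3 and 2 calls toward low.

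Between organs, 1 of the 113 was higher and 0 lower for spleen against mesenteric nodes (background 1.71%), 4 higher and 6 lower for spleen against axillary nodes (background 6.93%), and 4 higher and 5 lower for mesenteric against axillary nodes (background 11.3%). With the narrowest peak as a term the counts were 0 higher and 1 lower, 0 higher and 1 lower, and 0 and 0. Aebp2 held 3 of the 5 that were lower in the mesenteric than in the axillary nodes, the largest at chr6:140707938-140708485 (-0.67 ± 0.13, limma adjusted p = 0.000225, and -0.75 with 0.0502 with the term). In presence of peaks, none of 50 tested between levels and none of 65 tested between organs passed. At an unadjusted p under 0.05 there were 2 toward high and 0 toward low (background 5.84% and 0.261%), and 12 between organs (background 11.2%).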

How the data were processed

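Each library came as its own list of ATAC-seq peaks (build mm10). Trimmomatic 0.33, MACS, Bowtie2 and bedtools are named in the submitters' processing notes, while options for calling, for shifting reads and for duplicates were not given in the sources used here. Each deposited peak carries the authors' score, fold enrichment (the ratio of reads at the summit to the local background), −log10 p and −log10 q, and the authors called peaks per library.

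The lists held 314829 peaks, of which 404 outside chromosomes 1 to 19 and X were set aside. Of the merged regions (median width 425 bp), 92.5% had the end of one of 21631 protein-coding genes of RefSeq (GRCm38.p6) within 100 kb. Summit reads were recovered from the deposited fold and p, with 1 whole number of summit reads matching within 0.002 for 99.3% of peaks. Depth is relative since total reads are not given in the files used. Log2 scaled reads were tested with limma 3.58.1 (trend, 6 group means, R 4.3.3) over 8756 regions present in all 18 libraries. Presence used Fisher's exact test (two-sided, SciPy 1.17.1) and a Fisher-Freeman-Halton test computed by listing every possible table with the same totals. Adjustment was by Benjamini-Hochberg over all regions at 0.05. The fits and tests were tested on simulated data.

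The genes and lists were chosen with earlier results of these data known. Regions were named by a rule: up to 8 per direction by smallest p for presence, described where p was below 0.2, and for reads those past the threshold, otherwise the 3 with the smallest p per direction. For high against low within organs, not all of these 3 are described. Alternatives were other scalings, filters, overlaps, list lengths, depths, distance limits, a replicate term, leaving out each library and, chosen after seeing the data, a term for the narrowest peak. Promoters of 13 of the genes were not used here.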

Additional observations from a re-analysis of the deposited data

Results flagged for a closer look

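Among 110 tests of a region within a group of libraries by Dixon's criterion, 2 libraries stood apart, and chance alone flags about 1 in 20 such groups. At the Chd2 region 3.81 kb inside the gene, replicate 1 of spleen high had 57.6 scaled reads, and the next of the 6 spleen libraries had 44.5. At the start of Smarca4, replicate 2 of mesenteric low had 26.5 scaled reads, and the next of the 9 low libraries had 19.6. This library is among the 7 without which the Smarca4 difference between mesenteric and axillary nodes was no longer called.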

How the results depend on the processing

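Counts below are regions of the 49 genes past an adjusted p of 0.05, and no named difference in reads changed sign under the settings run. In presence between organs, the mesenteric lead of Brd2, Chd2 and Smarce1 passed to another organ at equal list length and was kept at equal depth. With the narrowest peak as a term the counts were 1 for high against low in the spleen (Chd7 at 57.2 kb), 0 for spleen against mesenteric, 0 for spleen against axillary and 0 for mesenteric against axillary nodes. Separate scaling by distance class gave 1 for high against low in the mesenteric nodes (Kdm4c). Spleen against mesenteric gave 0 with assignment within 50 kb, 9 when scaled to the genome-wide background, 0 by the authors' fold and 2 with regions present in at least 15 libraries. Spleen against axillary gave 0 by the authors' fold. Mesenteric against axillary gave 8 when scaled to the genome-wide background, 1 by the authors' fold and 3 with pileup above the median, where fewer regions were tested. The cause of the other changes was not tested. Leaving out each library in turn gave 0 to 1 for high against low, 0 to 1 for spleen against mesenteric, 1 to 4 for spleen against axillary and 2 to 6 for mesenteric against axillary nodes, and 0 to 0 for presence, the interaction and high against low within each organ. Named regions kept their side of the threshold in 868 of the leave-one-out values, and 48 lost and 2 gained a call; under the other settings the numbers were 299, 29 and 2. Distance-class scaling also ended the calls of Kmt2b (adjusted p = 0.0574 by limma), Smarca4 (0.0648), Chd7 (0.101) and Chd1 (0.117). The replicate block left each count as it was, 1, 3 and 5 between organs and 0 elsewhere; libraries with the same number deviated together no more than others (r from -0.027 to 0.035), and 7 of 18 correlated best with their own number. Depth was lowest in the axillary libraries (8.48 to 10.2 reads per 10 kb) and replicate 3 of spleen low (9.84), where the lack of a peak says least.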

Other observations

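Some open chromatin inside or at these genes fell outside the counting rule. Inside the genes but more than 100 kb from a gene end lay 15 regions, 9 in Arid1b, 5 in Hdac4 and 1 in Mllt3. Regions at or near the ends of 5 genes lay nearer to a neighbour: Arid2 to Gm38469, Kmt2d to Prkag1 and Jmjd1c to Reep3 (each present in 18 libraries), Hdac3 to Rell2 (17) and Chd4 to Nop2 (14). At the limit of 100 kb, the last region inside was in Arid1b (97337 bp, 3 libraries) and the first outside in Mllt3 (100214 bp, 16 libraries). At the limit of 1 kb they were in Ep300 (928 bp, 18 libraries) and Tet3 (1152 bp, 1 library).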
